A study of Danio rerio with 5 samples.

Results

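Most of the genes described here code for RNA helicases of the DEAD-box and DEAH-box families (ddx and dhx genes) or for nucleolar proteins. The latter are named nop, nol, utp or rrp, and many of them act in building ribosomes. All genes described here were taken by gene symbol alone. The rule takes every probe set whose symbol on the array's annotation begins with one of these stems followed by a digit. No measured value entered this rule, but it was chosen with earlier results of these data known. Of the 15502 probe sets other than controls, 79 had 1 such symbol, and they stand for 63 of the 8793 genes with a named probe set: 37 helicase genes and 26 nop, nol, utp and rrp genes. One further probe set carries nop58 together with unrelated symbols and was left out. Where a gene had several probe sets, the one with the highest mean over the arrays stands for it.

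Total RNA of whole zebrafish embryos at 72 h after fertilization was measured on 5 Affymetrix zebrafish arrays. They hold 1 sample of Bdh2 morphants given, in addition, a synthetic capped mRNA of mouse bdh2 (called the ectopic Bdh2 array below), 2 samples of Bdh2 morphants and 2 of control morphants (called controls). All groups were wild-type embryos injected at the 1- to 2-cell stage with 1 to 2 nL of a morpholino solution of 130 µmol/L, and 50 µg/ml was the concentration of the mRNA. Morpholinos are synthetic antisense oligomers that block an RNA. The labels name neither the morpholino sequences nor the number of embryos per sample, and nothing in them ties a replicate to a clutch of its own. P-values therefore measure the spread between these samples only, which may be technical.

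Ribosome assembly begins in the nucleolus, where RNA polymerase I makes the precursor of the ribosomal RNAs. Small nucleolar ribonucleoproteins then guide its modification, and the small-subunit processome, which holds many UTP proteins, folds and cuts the part that becomes the small subunit. RRP, NOP and NOL proteins act at several steps of both subunits. DEAD-box and DEAH-box proteins use ATP to remodel RNA and its proteins. Some act in ribosome assembly, and others in splicing, mRNA export, translation or RNA decay. In zebrafish embryos many genes of ribosome assembly are most active in dividing progenitor cells.

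The deposited intensities had the same trimmed mean on every array, between 500.1 and 500.2 after leaving out 2% of the values at each end, as after scaling of each array to a common level. Arrays also differed by replicate number, and results of Bdh2 morphants against controls are therefore given within number 1 and within number 2 as well. The ratio of the 3' to the 5' probe set of acta1, which is higher in degraded RNA, was 6.63 in the ectopic Bdh2 array, 11.8 and 3.49 in Bdh2 morphants and 4.28 and 2.60 in controls. For gapdh the same ratio was 1.99 in the ectopic Bdh2 array, 2.82 and 1.71 in Bdh2 morphants and 2.68 and 1.504 in controls, so both number 1 arrays of these groups lay above the number 2 arrays and the ectopic Bdh2 array lay between. In the ectopic Bdh2 array, genes of skeletal muscle and liver were far lower than in the other arrays. The summed intensity of the 20 measured of 28 listed muscle genes was 46228 there, 287598 and 245457 in Bdh2 morphants and 340098 and 300273 in controls. That of 13 of 18 liver genes was 15729.8, against 64938 and 97045 in Bdh2 morphants and 72550.5 and 73172 in controls. In whole embryos, fewer cells of a type and less RNA per cell cannot be told apart.

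In Bdh2 morphants against controls, genes of ribosome assembly had mostly higher values, while helicases of splicing and mRNA export were spread about 0. Differences are given on the scale of log2(intensity + 16). Of all 63 members, 48 were higher and 15 lower in Bdh2 morphants, with a median difference of 0.26, where 4520 of 8793 genes were higher with a median of 0.011. The 26 nop, nol, utp and rrp genes had a median of 0.36 with 23 higher, and the 37 helicases one of 0.16 with 25 higher. No member passed the test. The test was made with limma on the 9301 probe sets whose mean lay above the 40th percentile (an intensity of 97.6), with Benjamini-Hochberg adjustment across all of them and a threshold of 0.05. It covered 54 member genes, and none passed, as did none of the 9301 probe sets (0% called; smallest adjusted p of a member = 1.00). At an unadjusted p under 0.05, 2 of the 54 members were higher and 1 was lower, where 0.142% of the tested genes were higher and 1.8% lower.

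The size of the difference depended on which control array was used. Within replicate number 1 the median of the 63 members was 0.48, with 50 higher in the Bdh2 morphant. Within number 2 it was 0.039, with 34 higher. Of all 8793 genes, 4482 were higher within number 1 (median 0.0090) and 4199 within number 2 (median -0.023). For the nop, nol, utp and rrp genes the medians within numbers 1 and 2 were 0.64 and 0.050. For the helicases they were 0.27 and -0.0081, with 18 of 37 higher within number 2, so the direction of their median turned there. Control replicate 1 held the lowest of the 5 values for 36 of the 63 members (57.1%), as against 17.4% of all genes. Among the nop, nol, utp and rrp genes it was the lowest for 18 of 26 (69.2%). Without control replicate 1 the median of the members was 0.071, and without control replicate 2 it was 0.40. Between the 2 controls, replicate 2 minus replicate 1, the median of the members was 0.34, and between the 2 Bdh2 morphants it was -0.13, so the spread between the controls was larger than the morphant-control difference. Over all genes these medians were -0.018 and -0.073.

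**Figure D1:**
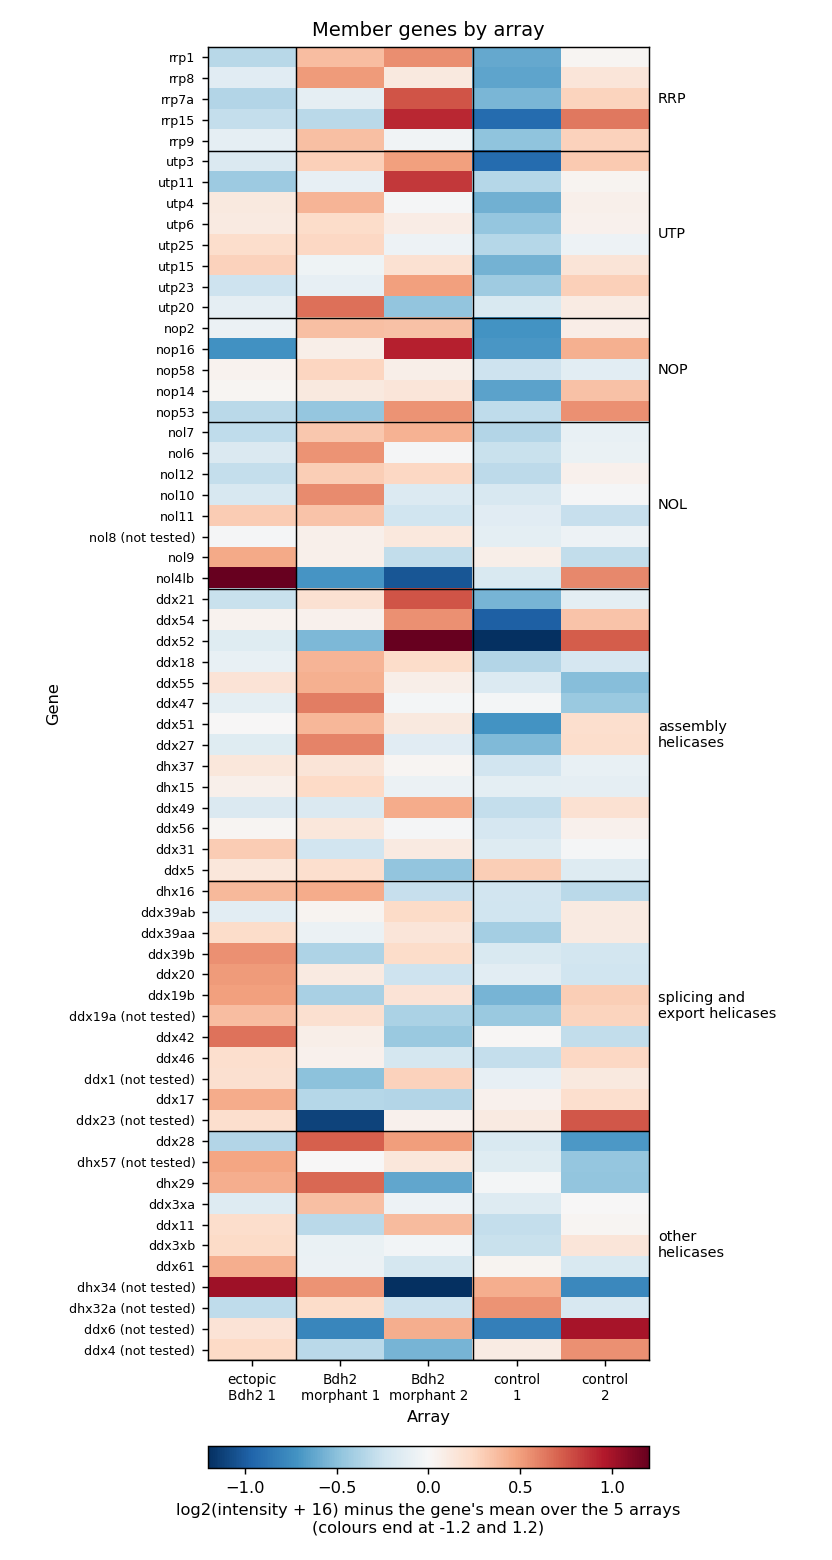
Each row is a member gene and each column an array; the colour is log2(intensity + 16) minus the gene's mean over the 5 arrays, red for higher and blue for lower. Genes are grouped by role and sorted within a group by their difference between Bdh2 morphants and controls. The column of control replicate 1 is blue for most rrp, utp and nop genes, and nol4lb stands out among the nol genes with its highest value in the ectopic Bdh2 array.

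**Figure D2:**
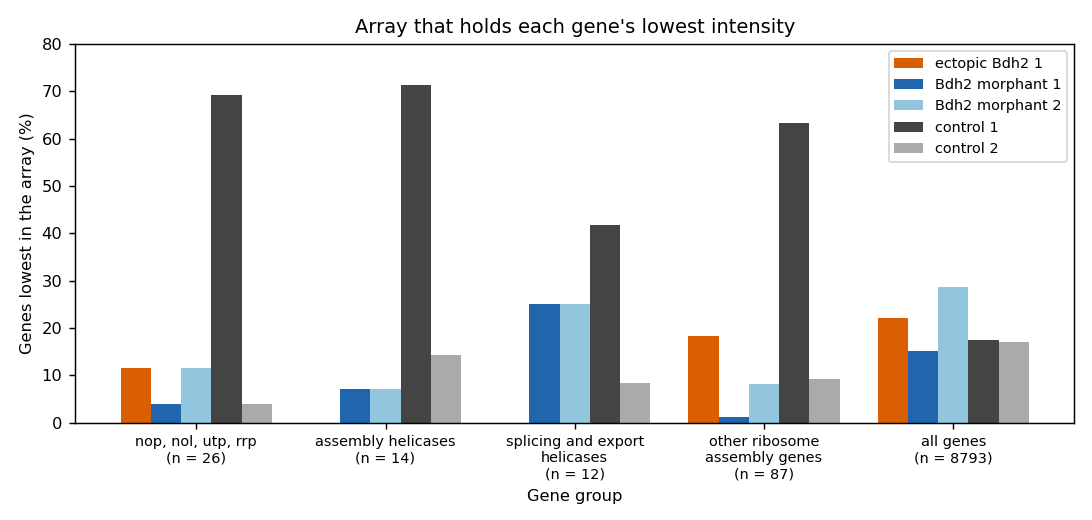
Bars give the percent of genes in each group whose lowest intensity of the 5 arrays lies in the array named by the colour. Control replicate 1 is the lowest array for 69.2% of the nop, nol, utp and rrp genes and 71.4% of the assembly helicases, against 17.4% of all genes.

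Groups that did not overlap give another view of the same comparison. In 15 of 63 members both Bdh2 morphants read above both controls, where 12.1% of all genes did so, and in 4 members both read below, where 14.4% did. The 15 were ddx18, ddx21, ddx28, ddx55, dhx15, dhx37, dhx57, nol6, nol7, nol8, nol12, nop2, nop58, rrp1 and utp6. All but ddx28 and dhx57 belong to the nucleolar or assembly groups, which hold 26 and 14 of the 63 members. The 4 were ddx4, ddx17, ddx23 and nol4lb. These lists include genes that lie outside the rule for named genes and are named because their groups did not overlap.

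The 5 rrp genes act in processing of the ribosomal RNA precursor. All 5 had a higher mean in Bdh2 morphants, with 5 higher within number 1 and 3 within number 2. Their median was 0.46 (0.84 in number 1 and 0.28 in number 2), and control replicate 1 was the lowest array for each. The gene rrp1, whose yeast counterpart is needed for the large subunit, read 416 in the ectopic Bdh2 array, 691 and 786 in Bdh2 morphants and 340.2 and 538 in controls. Both morphants lay above both controls, with a difference of 0.76 (SE 0.36, n = 2 and 2; limma adjusted p = 1.00). The gene rrp15 read 659.8 in the ectopic Bdh2 array, 645 and 1531 in Bdh2 morphants and 418 and 1259.8 in controls. Here the number 2 arrays were high in both groups and the groups overlapped, with a difference of 0.44 (SE 0.62; limma adjusted p = 1.00). The gene rrp9 codes for a component of the U3 ribonucleoprotein and had the smallest difference of the 5, 0.26 (SE 0.40; within numbers 0.84 and -0.32). With control replicate 1 left out, the difference was -0.34 for rrp15 and -0.12 for rrp9, and without Bdh2 morphant replicate 2 it was -0.17 for rrp15, so the sign of both depended on single arrays. Of the remaining 2, given for completeness, rrp8, which codes for a nucleolar methyltransferase, read 113 in the ectopic Bdh2 array, 187 and 138 in Bdh2 morphants and 75.6 and 141 in controls, and rrp7a read 469 in the ectopic Bdh2 array, 559 and 1029 in Bdh2 morphants and 408 and 732 in controls.

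The 8 utp genes, whose yeast counterparts belong to or act with the small-subunit processome, also all had a higher mean in Bdh2 morphants. Within number 1 all 8 were higher, and within number 2, 5 were. Their median was 0.33 (0.64 in number 1 and 0.037 in number 2), with a range from 0.14 for utp20 to 0.69 for utp3. The utp3 values were 121 in the ectopic Bdh2 array, 172 and 201 in Bdh2 morphants and 65.4 and 176 in controls. Control replicate 1 stood apart from the other 4 arrays, and the difference of 0.69 (SE 0.47; limma adjusted p = 1.00) was 1.21 and 0.17 within numbers. The gene utp4, known in human as cirhin, read 671 in the ectopic Bdh2 array, 825 and 611 in Bdh2 morphants and 408 and 643 in controls. Bdh2 morphant 1 was the highest array, control 1 the lowest, and the remaining 3 lay close together. For utp20 the values were 319.6 in the ectopic Bdh2 array, 555 and 245 in Bdh2 morphants and 301 and 371 in controls. The within-number differences of utp20, 0.85 and -0.57, had opposite signs, and its difference was -0.0044 with control replicate 1 left out and -0.43 without Bdh2 morphant replicate 1. The gene utp25, in zebrafish also called def and known for its part in the growth of the digestive organs, lies outside the rule for named genes and read 423 in the ectopic Bdh2 array, 436 and 348 in Bdh2 morphants and 284 and 349 in controls.

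Of the 5 nop genes 4 were higher, with a median of 0.35 (0.76 in number 1 and 0.21 in number 2). The gene nop2, which codes for a methyltransferase of ribosomal RNA, read 647 in the ectopic Bdh2 array, 881 and 872 in Bdh2 morphants and 407 and 722 in controls. Both morphants lay above both controls, with a difference of 0.68 (SE 0.38; limma adjusted p = 1.00). The gene nop58 codes for a core protein of the box C/D small nucleolar ribonucleoproteins, which guide methylation of ribosomal RNA. Its brighter probe set read 3592 in the ectopic Bdh2 array, 4173 and 3669 in Bdh2 morphants and 2938 and 3181 in controls. The second probe set of nop58 read 1392 in the ectopic Bdh2 array, 2218 and 2707 in Bdh2 morphants and 951 and 2916 in controls, with control 1 as its lowest array. The brighter set differed by 0.35 (0.50 and 0.21 within numbers) and the second by 0.55 (1.21 and -0.11), or -0.25 with control replicate 1 left out. The exception among the nop genes was nop53, an assembly factor of the large subunit, at -0.087 (-0.16 and -0.0099), whose number 2 arrays were the high ones in both groups. It was 0.34 with control replicate 2 left out and 0.42 without Bdh2 morphant replicate 1.

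Of the 8 nol genes 6 were higher, with a median of 0.28 (0.54 in number 1 and 0.049 in number 2). The gene nol7 read 1285 in the ectopic Bdh2 array, 2003 and 2132 in Bdh2 morphants and 1246 and 1499 in controls. Both morphants lay above both controls, by 0.68 and 0.50 within numbers, and the overall difference was 0.59 (SE 0.30; limma adjusted p = 1.00). The gene nol6, counterpart of a yeast processome component, lies outside the rule and read 542 in the ectopic Bdh2 array, 896 and 607 in Bdh2 morphants and 508 and 581 in controls. The lowest difference of all 63 members was that of nol4lb. This gene shares the stem of its name with the others but is not known as an assembly factor. It read 461 in the ectopic Bdh2 array, 98.9 and 76.0 in Bdh2 morphants and 149.9 and 265 in controls. Both morphants lay below both controls, with a difference of -1.07 (SE 0.40; unadjusted p = 0.0315, limma adjusted p = 1.00; -0.53 and -1.61 within numbers). The summed intensity of 9 of 20 listed genes of neurons was 14988 in the ectopic Bdh2 array, 10432 and 5056 in Bdh2 morphants and 11346 and 10003 in controls, so its lowest and highest arrays were the same as those of nol4lb, while Bdh2 morphant 1 lay between the controls. The part of neurons in the nol4lb values was not tested.

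**Figure D3:**
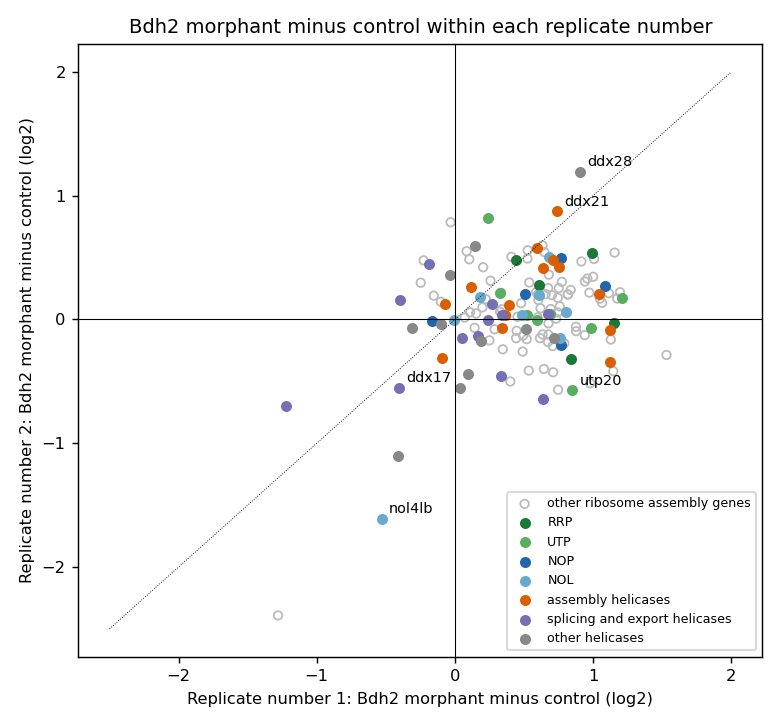
Each point is a gene, with its difference between Bdh2 morphant and control in replicate number 1 on the horizontal axis and in number 2 on the vertical axis, both in log2 units; the dotted line marks equal differences and open circles are other ribosome assembly genes. Most nucleolar and assembly genes lie to the right of 0, while vertically they are spread on both sides of 0. In number 2, 16 of the 26 nop, nol, utp and rrp genes and 10 of the 14 assembly helicases lie above 0. Of all 8793 genes, which are not drawn, 4199 were higher there. The genes ddx28 and ddx21 are among those near the dotted line.

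Among helicases, the 14 of ribosome assembly had mostly higher values in Bdh2 morphants. Of the 14, 13 were higher, with a median of 0.45 (0.61 in number 1 and 0.16 in number 2). In 5 of the 14 both Bdh2 morphants read above both controls, where 12.1% of all genes did so. The highest difference in this group was that of ddx21, a nucleolar helicase of ribosomal RNA transcription and processing. It read 1654 in the ectopic Bdh2 array, 2260.1 and 3364 in Bdh2 morphants and 1348 and 1828 in controls. The ectopic Bdh2 array lay between the controls, and both morphants lay above all 3. The difference between morphants and controls was 0.81 (SE 0.34; unadjusted p = 0.0498, limma adjusted p = 1.00), and 0.74 and 0.87 within numbers.

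The gene ddx18, counterpart of a yeast helicase of both subunits, read 933 in the ectopic Bdh2 array, 1320.3 and 1158 in Bdh2 morphants and 775 and 861 in controls. Its difference was 0.59 (SE 0.31; 0.76 and 0.42 within numbers), but a second, dimmer probe set gave 0.068 (0.33 and -0.20), or -0.53 with control replicate 1 left out. The gene ddx55, whose yeast counterpart acts on the large subunit, read 552 in the ectopic Bdh2 array, 666 and 516 in Bdh2 morphants and 437 and 340.1 in controls. Its within-number differences were nearly the same, 0.59 and 0.58, for a mean of 0.59 (SE 0.35; limma adjusted p = 1.00). The gene ddx51, whose yeast counterpart acts on the large subunit, read 291 in the ectopic Bdh2 array, 389 and 316 in Bdh2 morphants and 170.2 and 337 in controls. Control 1 was the lowest array, and the within-number differences of ddx51 were 1.12 and -0.086. The DEAH helicase gene dhx15, which acts in both assembly and splicing, read 3534 in the ectopic Bdh2 array, 4016 and 3232 in Bdh2 morphants and 3125 and 3145 in controls. It differed by 0.20 (SE 0.27). The gene ddx5, also a factor of splicing and transcription, was the one member of this group with a lower mean, -0.20 (-0.094 and -0.32). With control replicate 1 left out it was 0.019, and without Bdh2 morphant replicate 2 it was 0.13.

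The 12 helicases of splicing and mRNA export were 6 higher and 6 lower, with a median of 0.0064 (0.20 in number 1 and -0.072 in number 2). With each array centred on its median, 9 were higher and the median was 0.11, beside 0.11 for all genes. The gene ddx39ab, a helicase of mRNA export, read 7154 in the ectopic Bdh2 array, 7963 and 9156 in Bdh2 morphants and 6606 and 8384 in controls and differed by 0.20 (SE 0.24). The gene ddx17, a splicing factor and coregulator related to ddx5, read 405 in the ectopic Bdh2 array, 228 and 227 in Bdh2 morphants and 306 and 339.5 in controls. Both morphants lay below both controls and the ectopic Bdh2 array was the highest. Its 2 probe sets gave -0.48 (SE 0.33; limma adjusted p = 1.00) and -0.44 (SE 0.36). The lowest difference in the group was -0.96 for ddx23, a helicase of the spliceosome, whose intensities of 11.3 and 44.9 in Bdh2 morphants, against 47.7 and 82.9 in controls were too low to be tested. The highest was 0.36 for dhx16 (0.67 and 0.045 within numbers), which was -0.0027 without Bdh2 morphant replicate 1.

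The 11 remaining helicases act in translation, decay, mitochondria, the germ line and elsewhere, and had a median of 0.0036 (0.096 in number 1 and -0.074 in number 2). It was 0.11 with each array centred and -0.031 after quantile normalisation, so its sign depended on the scaling. The smallest p of all members was that of ddx28, which in human codes for a mitochondrial helicase of mitoribosome assembly. It read 105 in the ectopic Bdh2 array, 239 and 203 in Bdh2 morphants and 120.3 and 79.8 in controls. Both morphants lay well above the other 3 arrays. The difference was 1.05 (SE 0.36; unadjusted p = 0.0244, limma adjusted p = 1.00), with 0.90 and 1.19 within numbers. The translation helicase genes ddx3xb and ddx3xa were at 0.0036 (SE 0.27) and 0.22 (SE 0.32). The germ cell gene ddx4, known as vasa, read 29.5 in the ectopic Bdh2 array, 15.0 and 10.3 in Bdh2 morphants and 25.3 and 40.6 in controls, too low to be tested. Of 7 measured germ cell genes 1, dnd1, passed the filter.

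**Figure D4:**
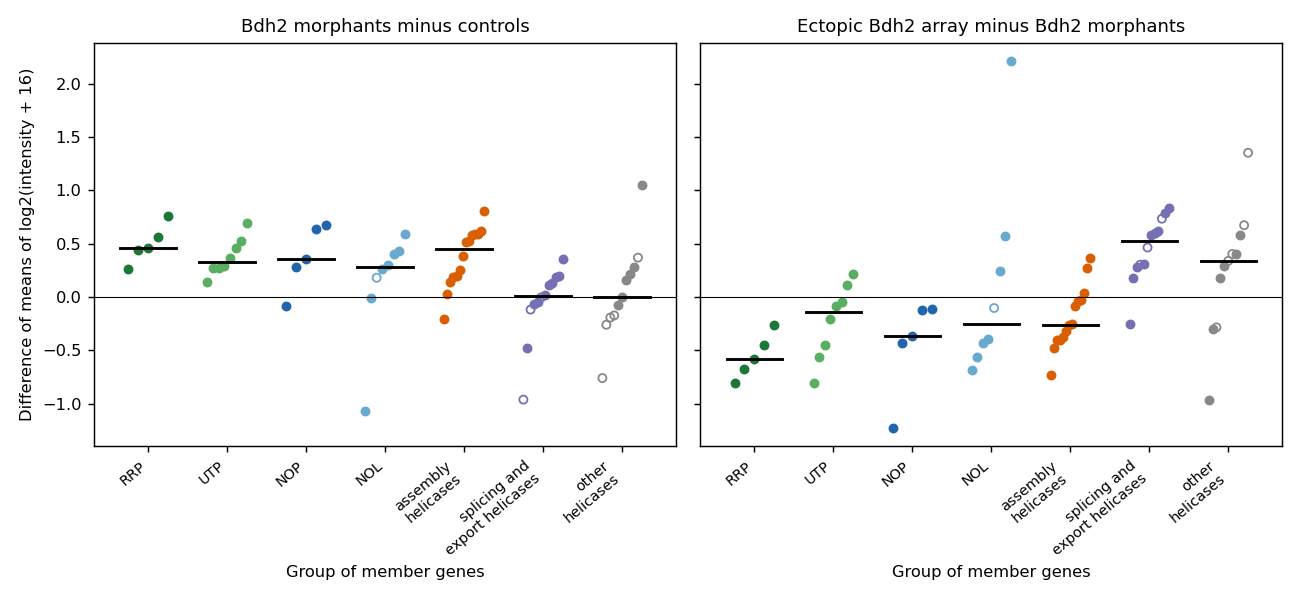
Each point is a member gene, filled where it was tested and open where it was too dim; bars are group medians and the vertical axis is the difference in log2 units. In Bdh2 morphants minus controls the rrp, utp, nop, nol and assembly helicase medians lie between 0.28 and 0.46; in the ectopic Bdh2 array minus Bdh2 morphants the same groups have negative medians and the splicing and export helicases a median of 0.52.

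Against Bdh2 morphants, the ectopic Bdh2 array had lower values of nucleolar genes and higher values of splicing helicases. The 26 nop, nol, utp and rrp genes had a median difference of -0.38, with 21 lower, and the 14 assembly helicases one of -0.26, with 11 lower. Against single morphants these medians were smaller. They were -0.27 from Bdh2 morphant 1 and -0.15 from Bdh2 morphant 2 for the nop, nol, utp and rrp genes, of which 18 were lower than in morphant 2. For the assembly helicases they were -0.15 and -0.045, with 6 of 14 higher than in morphant 2. The 12 splicing and export helicases had a median of 0.52 (0.49 from morphant 1 and 0.37 from morphant 2), with 11 higher, and the other helicases one of 0.34. Over all genes the median was 0.089, with 3904 of 8793 lower. With each array centred on its median the median of all genes moved by -0.20, and those of the first 3 groups were -0.58, -0.46 and 0.32. Of the 54 tested members 0 passed (limma), where 49 of 9301 probe sets did (0.527%). At an unadjusted p under 0.05, by the brightest probe set of each gene, 1 member was higher and 0 were lower, where 5.88% of the tested genes were higher and 6.4% lower. The single ectopic Bdh2 array was assumed to vary like the other groups. It read above both morphants in 18 of 63 members and below both in 27, where 40.4% and 31.3% of all genes did so. Among the nop, nol, utp and rrp genes it read below both morphants in 16 of 26. The low muscle and liver sums of this array stand beside all of these values, and their part in them was not tested.

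By the brightest probe set of each gene, the smallest p of a member in this comparison was that of nol4lb, with a difference of 2.21 (SE 0.49, n = 1 and 2; unadjusted p = 0.00278, limma adjusted p = 0.183). For ddx28 it was -0.97 (SE 0.45; adjusted p = 0.447 by limma). The gene nop16, which acts on the large subunit, read 845 in the ectopic Bdh2 array, 1476 and 2697 in Bdh2 morphants and 861 and 1902 in controls. The ectopic Bdh2 array and control 1 were the lowest, and the difference from Bdh2 morphants was -1.23 (SE 0.59; limma adjusted p = 0.467). For ddx21, rrp1 and nol7 the differences were -0.73 (SE 0.42), -0.80 (SE 0.45) and -0.68 (SE 0.36). On the other side, ddx42, a helicase of the spliceosome, read 744 in the ectopic Bdh2 array, 491 and 339.9 in Bdh2 morphants and 474 and 378 in controls. The ectopic Bdh2 array lay above the other 4, which overlapped, with a difference of 0.84 (SE 0.44; limma adjusted p = 0.497). The ddx17 probe sets gave 0.79 (SE 0.40) and 1.21 (SE 0.44).

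**Figure D5:**
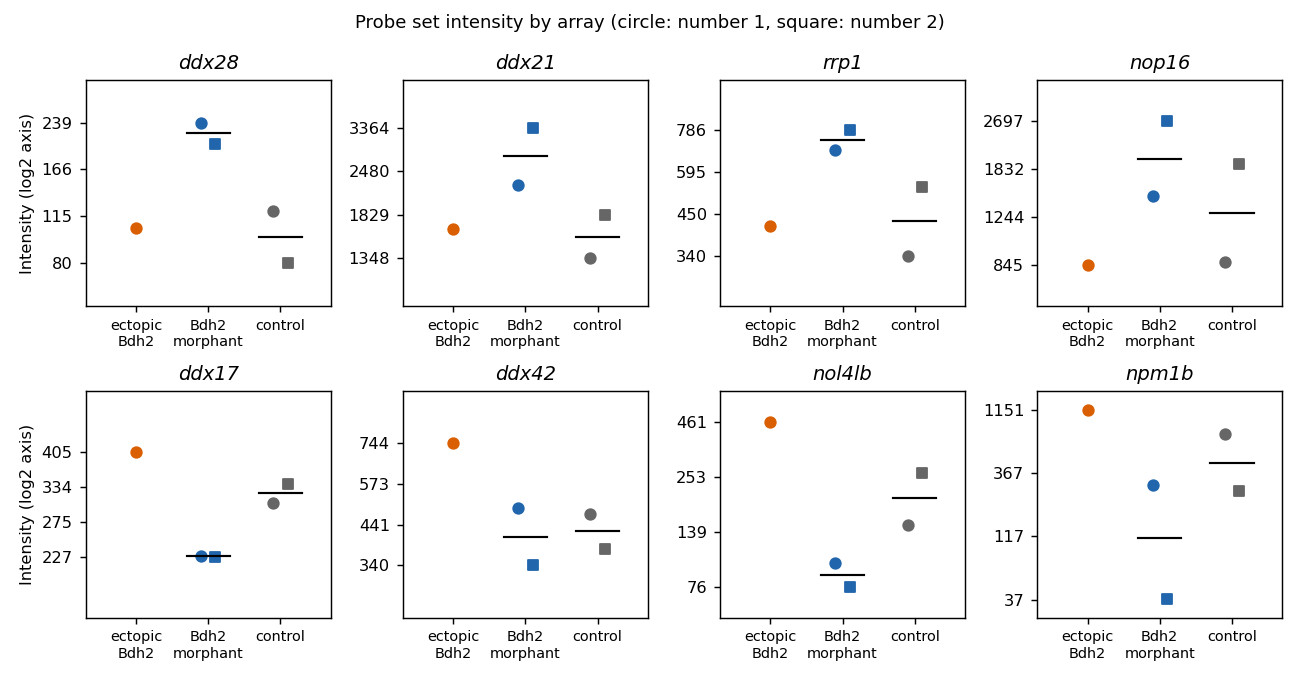
Probe set intensity on a log2 axis for 7 member genes and npm1b, by group; circles are replicate number 1, squares number 2, and bars the means of groups with 2 arrays. In ddx28, ddx21 and rrp1 the ectopic Bdh2 array lies within the range of the controls and below both Bdh2 morphants, whereas in ddx17, ddx42, nol4lb and npm1b it is the highest array.

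Against controls, the ectopic Bdh2 array was near the middle of the 2 controls for nucleolar genes, and mostly higher for helicases, of which 31 of 37 were higher (26 with each array centred) with a median of 0.26. The helicase median was 0.41 from control 1 and 0.11 from control 2, with 23 of 37 higher than control 2, and 0.16 with each array centred. The nop, nol, utp and rrp genes had a median of 0.037, which was -0.061 with each array centred and -0.063 after quantile normalisation. It was 0.33 from control 1 and -0.21 from control 2, so the direction depends on which control is used. Of the 63 members the array read above both controls in 29 and below both in 5, where 41.6% and 30.2% of all genes did so. In 9 of the 26 the array read above both controls and in 4 below both. Splicing and export helicases had a median of 0.42, with 10 of 12 higher, and 0.62 and 0.15 from controls 1 and 2. Over all genes the median was 0.089, with 4981 of 8793 higher (4334 with each array centred). This comparison shares the ectopic Bdh2 array with the preceding one and the controls with that of Bdh2 morphants, so the 3 sets of values are not independent.

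No tested member passed against controls (limma), where 62 of 9301 probe sets did (0.667%), and by the brightest probe set of each gene 0 of 54 had an unadjusted p under 0.05, where 2.02% of the tested genes were higher and 5.29% lower. By that probe set the smallest p values were those of nol4lb, at 1.14 (SE 0.49; limma adjusted p = 0.713), and ddx42, at 0.79 (SE 0.44). Of the 8 members with the smallest p, 5 were helicases of splicing and export, a group that held 9 of the 54 tested members. The gene ddx39b, an export and splicing helicase, read 829.6 in the ectopic Bdh2 array, 431 and 658 in Bdh2 morphants and 492 and 478 in controls, so the ectopic Bdh2 array was the highest, and its difference was 0.75 (SE 0.43). The gene ddx20, part of the complex that assembles small nuclear ribonucleoproteins, differed by 0.69, dhx16 by 0.67, ddx19b of mRNA export by 0.62, nol9 by 0.56 and ddx61 by 0.51, with SE between 0.33 and 0.50. Dimmer tested probe sets gave 0.80 for ddx20 but 0.095 for ddx19b and -0.21 for ddx61. From controls 1 and 2 separately, that of ddx19b was at 0.80 and -0.60, and that of ddx61 at 0.056 and -0.47. The sign of both thus depended on which control was used, while that of ddx20 was at 0.47 and 1.13. An untested probe set of ddx61 was at 0.70.

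For 12 members the array carries more than 1 probe set, which allows the readings to be compared. In Bdh2 morphants against controls, all probe sets of a gene had the same sign in 7 of the 12, and in the ectopic Bdh2 array against Bdh2 morphants also in 7. The probe sets of ddx20 (0.11 and 0.37), ddx31 (0.025 and 0.32) and ddx19b (0.015 and 0.032) had 1 sign each against controls. Those of ddx46 were at -0.064 and -0.093. Among these near-0 values, the sign of the brighter set turned without 1 array: -0.062 for ddx20 without Bdh2 morphant replicate 1, and -0.046 for ddx31, -0.41 for ddx19b without control replicate 1, and 0.20 for ddx46 without control replicate 2. With control replicate 1 left out, the dimmer sets were at -0.66 for ddx19b and -0.050 for ddx31. The 4 probe sets of ddx51 ran from -0.26 to 0.58, but 3 of them were too dim to be tested. The 3 of ddx61 ran from -0.090 to 0.63, the highest again an untested one, and the 3 of ddx3xa, all tested, from -0.097 to 0.22, so the probe sets of ddx3xa differed in sign. The 2 probe sets of ddx3xb gave differences of unlike size in the ectopic Bdh2 array. The dimmer one read 254 in the ectopic Bdh2 array, 82.0 and 85.9 in Bdh2 morphants and 66.1 and 139.6 in controls, so the ectopic Bdh2 array was the highest. Its difference was 1.44 from Bdh2 morphants (SE 0.51; unadjusted p = 0.0269, limma adjusted p = 0.344) and 1.26 from controls (SE 0.51; unadjusted p = 0.0444, limma adjusted p = 0.693), the smallest p of any member probe set against controls. The brighter one, at 4809 in the ectopic Bdh2 array, 3858 and 4003 in Bdh2 morphants and 3392 and 4530.3 in controls, was also highest in the ectopic Bdh2 array. In Bdh2 morphants against controls the dimmer one was at -0.18, and at 0.28 with control replicate 2 left out. Both probe sets of ddx6, a helicase of mRNA decay, were too dim. The members whose probe sets were all too dim were ddx1, ddx4, ddx6, ddx19a, ddx23, dhx32a, dhx34, dhx57 and nol8.

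Ribosome assembly genes with other names were also mostly higher in Bdh2 morphants. Of 118 listed genes 87 were measured, and 85 were higher in Bdh2 morphants, where 51.4% of all genes were. Within number 1, 81 of the 87 were higher, and within number 2, 58 were, where 4482 and 4199 of all 8793 genes were. The median of the 87 was 0.35 (0.63 in number 1 and 0.11 in number 2). It was 0.094 without control replicate 1 and 0.61 without control replicate 2. Control 1 was the lowest array for 63.2% of them. None of the 86 tested passed or had an unadjusted p under 0.05 (limma). The 3 smallest p values were those of nhp2, a protein of the box H/ACA ribonucleoproteins that guide pseudouridylation, of npm1b and of rsl1d1. The nhp2 values were 3229 in the ectopic Bdh2 array, 5091 and 5691 in Bdh2 morphants and 2692 and 4109 in controls, with a difference of 0.69 (SE 0.30). The gene npm1b, which codes for a nucleophosmin was 1 of the 2 genes of the list that were lower in Bdh2 morphants, and read 1151 in the ectopic Bdh2 array, 293 and 37.4 in Bdh2 morphants and 735 and 264 in controls. It ran against the other assembly genes, with a difference of -1.84 (SE 0.85; -1.28 and -2.39 within numbers), and, as in nol4lb, the ectopic Bdh2 array was highest and Bdh2 morphant 2 lowest. The rsl1d1 difference was 0.67 (SE 0.34).

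Of the same 87 genes 63 were lower in the ectopic Bdh2 array than in Bdh2 morphants (73 with each array centred). Over all genes 3904 of 8793 were lower (5090 with each array centred). The median of the 87 genes was -0.31 from Bdh2 morphants. From controls it was 0.046, or 0.28 from control 1 and -0.25 from control 2. Against Bdh2 morphants 1 of the 86 tested genes was higher and 3 were lower at an unadjusted p under 0.05, where 5.88% and 6.4% of the tested genes were.

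Genes upstream of assembly were examined as short lists. Of 13 measured genes of RNA polymerase I and its factors, 10 were higher in Bdh2 morphants, with a median of 0.36 (0.45 in number 1 and 0.17 in number 2). The polymerase subunit gene polr1g read 334 in the ectopic Bdh2 array, 520.0 and 524 in Bdh2 morphants and 309 and 333 in controls. Both morphants lay above the other 3 arrays, with a difference of 0.68 (SE 0.32; limma adjusted p = 1.00; 0.72 and 0.63 within numbers). The shared subunit gene polr2l differed by 0.57 (0.38 and 0.76) and polr1b, the second largest subunit, by 0.70 (1.23 and 0.17). Of 6 genes of the Myc family, transcription factors that drive ribosome synthesis and their partners, 4 were higher, with a median of 0.15 (0.25 in number 1 and -0.16 in number 2). The gene mycn read 1589 in the ectopic Bdh2 array, 1668 and 1077 in Bdh2 morphants and 1002 and 1023 in controls, and differed by 0.40 (SE 0.34), with max at 0.19 and myca at 0.25. With Bdh2 morphant replicate 1 left out, myca was at -0.19. The 4 eif4a genes, DEAD-box helicases of translation initiation and of the exon junction complex that the naming rule leaves out, had a median of 0.038, with eif4a3 at 0.29, eif4a1b at -0.33 and eif4a1a at 0.075. Each of the 3 turned its sign with 1 control left out: with control replicate 1 left out eif4a3 was at -0.0016 and eif4a1b at 0.062, and with control replicate 2 left out eif4a1a was at -0.15.

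Faulty ribosome assembly is known to activate p53. The 11 measured of 18 listed p53 response genes had a median of 0.013 in Bdh2 morphants against controls, but 0.74 within number 1 and -0.50 within number 2. Of the 11, 9 were higher in the morphant in number 1 and 0 in number 2. The gene phlda3 read 211 in the ectopic Bdh2 array, 512 and 225 in Bdh2 morphants and 118 and 394 in controls, with 1.98 and -0.77 within numbers. The others with the smallest p were tp53inp1, at -0.12 and -0.50 within numbers, and bbc3, which codes for the cell death protein Puma, at 0.92 and -1.74. None passed (limma).

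Marker genes of dividing cells, in which many assembly genes are most active, were measured alongside. The summed intensity of 20 of 25 listed genes was 63729 in the ectopic Bdh2 array, 71119 and 63945 in Bdh2 morphants and 61589.9 and 60566 in controls. Gene by gene, the direction in the ectopic Bdh2 array against Bdh2 morphants differed from that of the sum. Of the 20, 15 were higher in the ectopic Bdh2 array than in Bdh2 morphants, with a median of 0.21, where 55.6% of all genes were higher. From controls 15 were higher as well, with a median of 0.32, where 56.6% of all genes were higher. The median difference of Bdh2 morphants from controls was 0.099 (0.30 in number 1 and -0.041 in number 2). The muscle list had a median of -0.32 in the same comparison, and 14 lens and retina genes one of -1.18, with sums of 23568 in the ectopic Bdh2 array, 9529.5 and 5757 in Bdh2 morphants and 23410.4 and 7466 in controls. Between the controls, replicate 2 minus replicate 1, the lens and retina median was 0.26 over the 14 genes and -1.002 over the tested ones, so the high sum of control 1 came from the brighter genes. The 9 neuron genes had a median of -0.67 (-0.34 in number 1 and -0.99 in number 2), with 0 higher. Both Bdh2 morphants read below both controls in 7 of 9, where 14.4% of all genes did so. Erythroid genes had -0.40, and their sum was 60293 in the ectopic Bdh2 array, 104773 and 62611 in Bdh2 morphants and 122415 and 59608 in controls. Among Bdh2 morphants and controls the number 1 arrays were the higher ones, while the ectopic Bdh2 array, also replicate 1, was at the level of the number 2 arrays. Whether these tissues' shares bear on the assembly genes was not tested.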

How the data were processed

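The values are the probe set intensities that the authors deposited, on a linear scale, and Affymetrix Expression Console is credited per the submitters' processing notes. Its version and algorithm are not stated in the labels or file headers. Tests used log2(intensity + 16), with no normalisation added, and 115 control probe sets were set aside. A mean per group was fitted to all 5 arrays with limma 3.58.1 in R 4.3.3, moderated with an intensity trend, with 2 residual degrees of freedom and 4.89 from the prior. P-values are two-sided. The pipeline was run on simulated data with independent noise and no effect of replicate number. That run does not show what the test can find in the arrays studied here. The number of arrays limits the precision.

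Gene symbols came from the platform annotation: 10795 probe sets had 1 symbol, 135 several and 4572 none. All 79 member probe sets matched the RefSeq gene table by gene identifier, and 0 symbols differed. The members and gene lists were chosen with earlier results of these data known, so no p-value is adjusted over a list alone and no list is tested. Lists are described by counts and medians over 1 probe set per gene, tested or not.

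Members were named by the 10 smallest p in Bdh2 morphants against controls, the 8 smallest in each comparison of the ectopic Bdh2 array, the brightest, highest and lowest of each role group, genes with several probe sets, and ddx4. No probe set carried the symbol ddx58 or dhx58. Of each other list the 3 smallest p were named. Role groups held the symbols listed for them, so ddx3xa and ddx3xb stand with the other helicases. Sequences were not analysed here. Alternatives covered the added constant, filter, scaling, moderation, replicate block, probe set choice and each array left out.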

Additional observations from a re-analysis of the deposited data

How the results depend on the processing

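No named member passed the threshold against controls under any alternative. The ectopic Bdh2 array is labelled replicate 1, and with it in block 1 no named member passed against Bdh2 morphants either. Against Bdh2 morphants, nol4lb in the ectopic Bdh2 array passed with that array in block 2 of the replicate number (2.10, limma adjusted p = 0.0391) and without control replicate 1 or 2 (2.21, adjusted p = 0.0394 and 0.0380), and nop16 passed with block 2 (-1.72, adjusted p = 0.0208). Its adjusted p over the alternatives ran from 0.0208 to 0.813, and that of nol4lb from 0.038 to 0.471.

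The replicate numbers share only a number in the labels, so pairing by them is a hint from the data. Deviations of same-numbered arrays from their group means correlated at r = 0.538, which with 2 pairs is the same value for both. With the replicate block, 3 probe sets passed in Bdh2 morphants against controls in place of 0, with the ectopic Bdh2 array in either block. Against Bdh2 morphants 151 (block 1) or 823 (block 2) passed in place of 49, and against controls 135 or 393 in place of 62. Without the filter these counts were 17 and 38, and with no intensity trend 0 and 40. Leaving out 1 array, they ran from 0 to 5, from 0 to 222 and from 84 to 132 in the order of the comparisons above. The cause was not tested.

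The median of all members in the ectopic Bdh2 array against Bdh2 morphants, -0.086, was -0.16 over tested genes only (an alternative chosen after seeing the data, as was leaving out nol4lb) and -0.040 over all probe sets. It was -0.12 with the filter at the 60th percentile, -0.29 centred, -0.21 after quantile normalisation and -0.0032 with block 1. For the other assembly genes the value of -0.31 was -0.27 with a constant of 64, -0.38 with the 60th percentile, -0.51 centred, -0.40 after quantile normalisation, and -0.19 and -0.41 with blocks 1 and 2. Leaving out 1 array, the members' medians ran from 0.071 to 0.40 against controls for Bdh2 morphants, from -0.086 to -0.030 for the ectopic Bdh2 array against Bdh2 morphants and from 0.049 to 0.38 against controls. Those of the other assembly genes ran from 0.094 to 0.61, from -0.36 to -0.30 and from -0.25 to 0.28. The counts of tested members with a positive difference, 46, 20 and 38, ran from 37 to 48, 17 to 25 and 27 to 47.

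Among differences between Bdh2 morphants and controls close to 0, the sign turned for ddx46 (0.040), ddx61 (0.034) and nop53 (0.017) with each array centred, and for ddx3xb (-0.031) after quantile normalisation. Dimmer probe sets turned with each array centred for ddx3xa (0.0062 and 0.078) and ddx61 (0.014), and after quantile normalisation for ddx3xa (0.0032). Leaving out 1 array turned the sign of the brightest probe sets of ddx19b (from -0.41 to 0.44), ddx20 (from -0.062 to 0.29), ddx31 (from -0.15 to 0.19), ddx3xb (from -0.20 to 0.21), ddx46 (from -0.33 to 0.20), ddx5 (from -0.54 to 0.13), ddx61 (from -0.17 to 0.035), dhx16 (from -0.0027 to 0.72), nop53 (from -0.59 to 0.42), rrp15 (from -0.34 to 1.22), rrp9 (from -0.12 to 0.64) and utp20 (from -0.43 to 0.70). It also turned that of dimmer probe set 1 of ddx18 (from -0.53 to 0.67), dimmer probe set 1 of ddx19b (from -0.66 to 0.73), dimmer probe set 1 of ddx31 (from -0.050 to 0.69), dimmer probe set 1 of ddx3xa (from -0.40 to 0.21), dimmer probe set 2 of ddx3xa (from -0.18 to 0.13), dimmer probe set 1 of ddx3xb (from -0.64 to 0.28), dimmer probe set 1 of ddx61 (from -0.35 to 0.17) and dimmer probe set 1 of nop58 (from -0.25 to 1.35), and of the other genes bbc3 (from -1.22 to 0.40), eif4a1a (from -0.15 to 0.30), eif4a1b (from -0.72 to 0.062), eif4a3 (from -0.0016 to 0.59), myca (from -0.19 to 0.70) and phlda3 (from -0.20 to 1.42). The other differences that were rerun, each in the comparison it is printed for, kept their sign under these alternatives. Dimmer probe sets of ddx20, ddx19b and ddx61 were not rerun for the ectopic Bdh2 array against controls. Probe sets too dim to be tested were not rerun. With 2 arrays in each of 2 groups and 1 in the other, the number of arrays limits the precision, and intensities near the added constant are the least certain.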
